A study of Rattus norvegicus with 6 samples.

Results

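The genes described here are 38 components of the actin cytoskeleton, the contractile apparatus and the focal adhesion, followed in primary rat chondrocytes that had received retinoic acid (RA) or not. Members were chosen by gene symbol, and each of the 38 symbols matched 1 identifier among the 18923 genes of the deposited tables. The CON group held 3 samples of wild-type chondrocytes from the cartilage of newborn female Sprague-Dawley rats, kept for 24 h in high-glucose DMEM with fetal bovine serum. The RA group held 3 samples of the same cells, kept for 24 h in that medium with 1 µM all-trans RA. Cells were at passage 1 or 2, and no vehicle is named for the CON medium. Antibiotics are named for the general culture medium only. The study describes its replicates as biologically independent and does not say whether each sample came from separate animals, so p-values measure the spread between these samples.

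Cytoplasmic actins polymerize into filaments that α-actinin and filamin crosslink, tropomyosin coats and non-muscle myosin pulls on. At focal adhesions, talin, vinculin, zyxin and their partners tie these filaments to integrins and so to the matrix. The transcription factor SRF, together with its actin-sensing cofactors, switches on many of these genes through a DNA motif named the CArG box, and in cartilage a rounded, weakly stressed actin cortex is associated with the differentiated state. The isoforms Acta2, Tagln and Cnn1 are abundant in smooth muscle and myofibroblasts, while Actb, Actg1, Tagln2 and Cnn2 are their broadly expressed relatives.

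With RA, some members showed small rises, and Acta2, smooth muscle α-actin, showed a larger fall. Of the 38 members, 37 had enough reads to be tested, and 10 of them rose and 1 fell at an adjusted p under 0.05 (edgeR's quasi-likelihood test, Benjamini-Hochberg adjustment over all 13438 genes tested). The 10 that rose were Actg1, Tagln2, Cnn2, Myl12a, Zyx, Pdlim5, Pdlim7, Vasp, Cfl1 and Pfn1. Rises made up 27% of the tested members, against 5.31% of all genes tested, and falls made up 2.7%, against 4.5%. Most members are abundant, and among the genes with a mean level of at least 20 FPKM, a limit chosen after the values were seen, 6.95% rose and 5.22% fell. The other 26 members did not pass the test. In bulk RNA, fewer cells of a type and less RNA per cell cannot be told apart.

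The changes were modest in size. Only Acta2 combined an adjusted p under 0.05 with a log2 fold change beyond 0.58, as did 4.96% of all genes tested. Cnn1, at -0.61, also lay beyond 0.58, with an unadjusted p of 0.0141 and an adjusted p of 0.1 (edgeR). The median log2 fold change of the tested members was 0.11, beside -0.0057 over all genes tested, and 30 of the 37 lay above 0. In 21 members every RA sample had a higher FPKM than every CON sample, and in 4 every RA sample was lower. Such a separation upward was seen in 18.9% of all genes tested and downward in 13.3%, and upward in 24.2% of those with a mean of at least 20 FPKM. FPKM is the deposited count scaled by gene length and sequencing depth, so that levels of different genes can be compared.

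**Figure D1:**
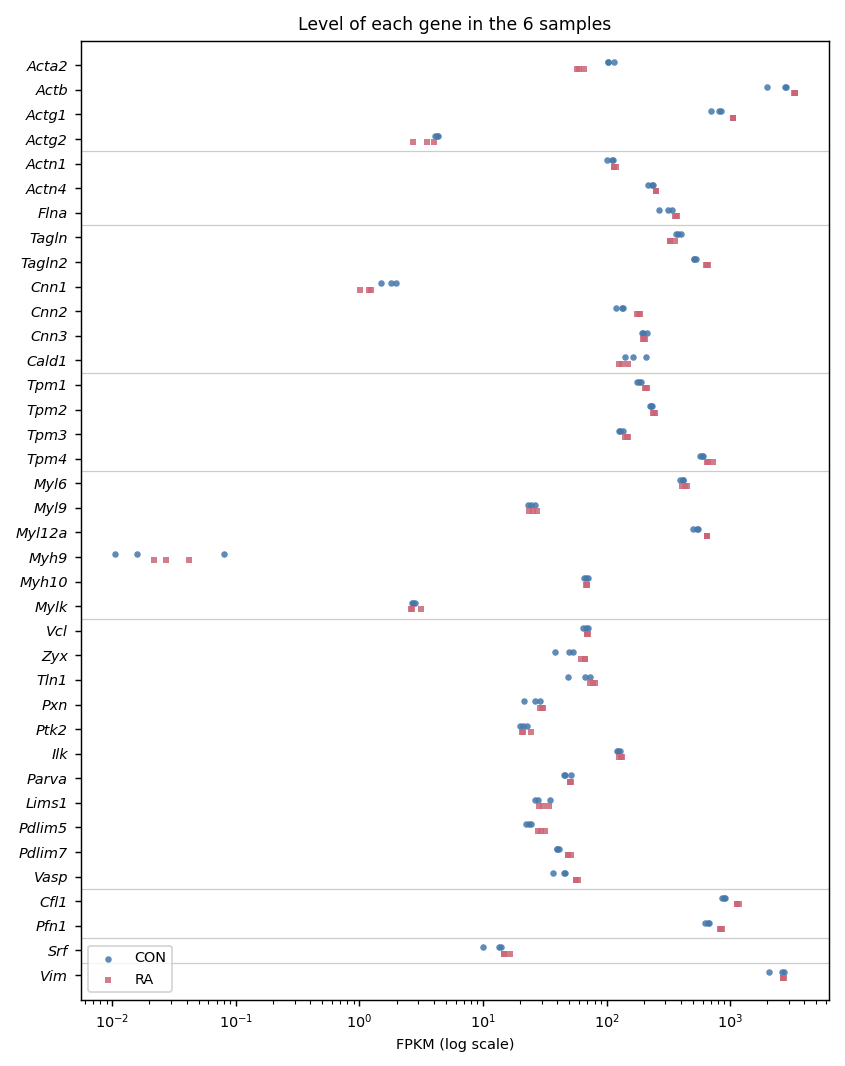
FPKM (log axis) of each of the 38 genes in the 3 CON samples (circles) and the 3 RA samples (squares), with grey lines between functional groups. Actb and Vim sit at the top, Cnn1, Mylk and Actg2 lie between about 1 and 5 FPKM, and Myh9 is at most 0.0804 FPKM in every sample.

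The number of members called depended on single samples. CON sample 1 stood apart: in 22 of the 37 tested members (59.5%) it was the lowest of the 3 CON samples, a position it held in 41.3% of all genes tested and in 44.3% of those with a mean of at least 20 FPKM. Without it, 15 members rose and 2 fell, when 8.65% of all genes tested rose and 7.8% fell. The members added were Actb, Flna, Tpm1, Tpm3 and Tpm4 among the rises and Tagln among the falls. Without CON sample 3, 12 rose and 2 fell, beside 5.46% and 4.21% of all genes tested. The number of rises was 5 without CON sample 2, when 3% of all genes tested rose. Leaving out RA sample 1, 2 or 3 gave 5, 4 and 4 rises, beside 2.92%, 2.84% and 2.75% of all genes tested. Acta2 was the single fall in each of these fits, in which 2.29%, 2.16%, 2.15% and 2.07% of all genes tested fell. Tagln2, Cnn2, Cfl1, Pfn1 and Acta2 passed the test whichever single sample was left out.

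**Figure D2:**
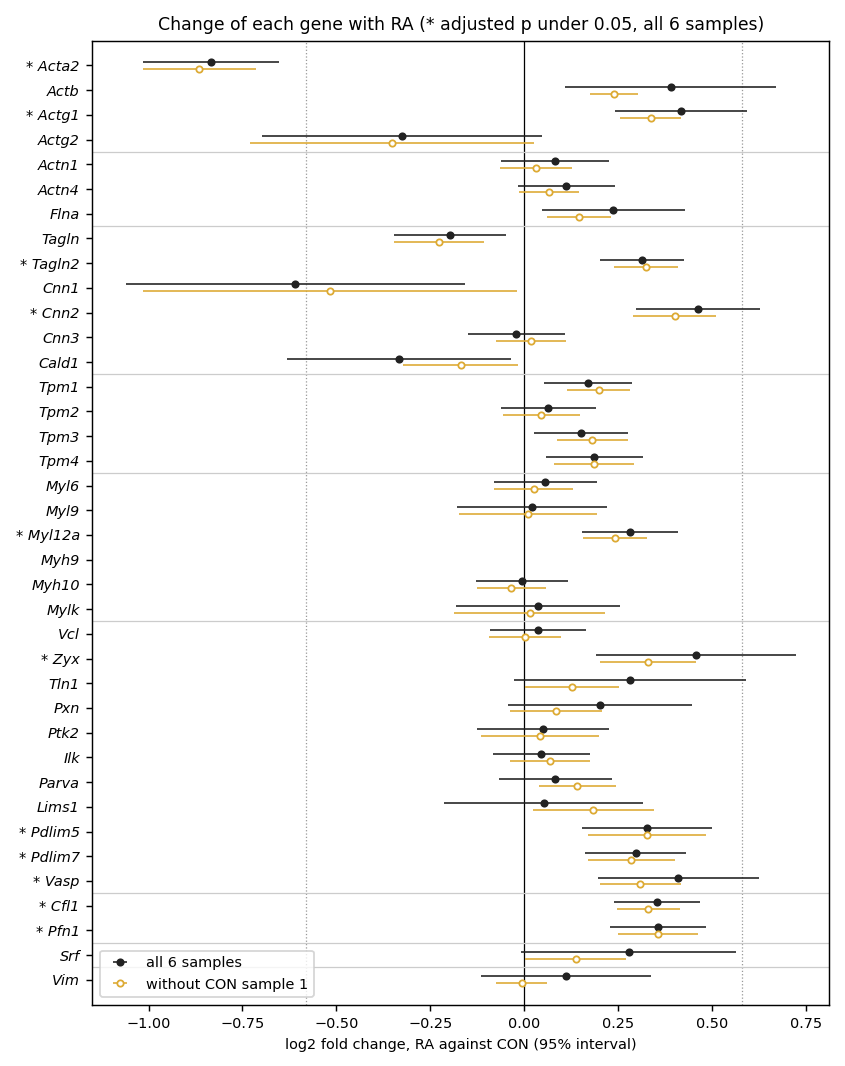
Log2 fold change of each gene, RA against CON, with its 95% interval, from all 6 samples (filled) and without CON sample 1 (open). An asterisk marks the 11 genes with an adjusted p under 0.05 in all 6 samples, and dotted lines mark 0.58 in either direction. Only Acta2 lies past a dotted line with an asterisk.

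The upstream sequences of 4 actin, calponin and SRF genes are shown. Actg1, Cnn2 and Srf carry exact matches to the CArG box, and Acta2, the member that fell, carries forms with 1 mismatch in its core. Whether SRF acts through the exact or the 1-mismatch forms was not tested. Of the 38 members, 32 had at least 1 promoter window in the RefSeq table of the rat assembly GRCr8, with 39 windows in all, each reaching from 250 bases before to 50 bases after an annotated start. Both strands were searched. The 6 members without a window, Actb, Actn4, Myl9, Parva, Ptk2 and Tagln, were not searched. The CArG box was found in 3 of the 39 windows (7.69%), those of Actg1, Cnn2 and Srf, and in 1.64% of all 33469 windows. The stretches below run 5′ to 3′ on the strand of the gene and end at the base before its start. Capitals mark the CArG box in the first 3, and in Acta2 a CArG box with 1 mismatch in its core.
Actg1, chr10:106120952-106121071, minus strand: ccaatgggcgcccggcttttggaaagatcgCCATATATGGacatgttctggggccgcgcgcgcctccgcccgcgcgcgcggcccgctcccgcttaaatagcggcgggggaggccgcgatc
Cnn2, chr7:10370313-10370432, minus strand: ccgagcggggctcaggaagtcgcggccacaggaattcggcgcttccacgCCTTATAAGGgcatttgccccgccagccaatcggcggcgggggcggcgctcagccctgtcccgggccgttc
Srf, chr9:21923956-21924075, plus strand: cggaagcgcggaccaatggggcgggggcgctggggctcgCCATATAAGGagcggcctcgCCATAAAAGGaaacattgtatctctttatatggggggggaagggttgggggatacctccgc
Acta2, chr1:241172504-241172643, minus strand: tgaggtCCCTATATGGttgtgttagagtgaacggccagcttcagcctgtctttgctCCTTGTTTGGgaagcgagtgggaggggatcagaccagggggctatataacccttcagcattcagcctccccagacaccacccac

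The CArG box began 90 bases upstream of the start in Actg1 and 71 bases upstream in Cnn2, both of which rose with RA. Srf carried a pair of them, 81 and 61 bases upstream, and did not pass the test. Acta2, which fell, had its 1-mismatch forms 134 and 84 bases upstream. Windows with a 1-mismatch form numbered 6 of 39 (15.4%) among the members, in Acta2, Tpm3, Zyx and Vasp, and made up 8.10% of all windows. The M-CAT element, spelled CATTCC and bound by TEAD factors, occurred in 10 of the 39 windows (25.6%) and in 14.2% of all windows, and none of the members' motif matches overlapped another. It was found in Acta2, Flna, Tagln2, Cald1, Tpm1, Myh10, Mylk, Vcl, Zyx and Pfn1, of which Acta2 fell, Tagln2, Zyx and Pfn1 rose and the others did not pass the test. The retinoic acid response element of direct repeat type 5 was in 0 of the 39 windows and in 0.382% of all windows. A motif this rare would seldom appear among 39 windows, and no other form of the element was searched. Control of the members by RA through such elements was not tested. A match describes letters in a window and is not evidence of binding.

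Actins form the filaments themselves, and the 4 actin genes did not change in the same direction. Acta2 (ENSRNOG00000058039), which encodes smooth muscle α-actin, was at 103, 104 and 115 FPKM in the CON samples and at 57.6, 65.4 and 59.5 FPKM in the RA samples. No RA sample reached the lowest CON sample. The level fell from 107 ± 6.67 to 60.8 ± 4.1 FPKM (SD, n = 3 each), or 1.78-fold. The log2 fold change was -0.83, with an SE (standard error) of 0.0793 and an edgeR adjusted p of 4.03e-04. Leaving out 1 sample at a time kept its log2 fold change between -0.89 and -0.77.

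Actg1 (ENSRNOG00000036701), cytoplasmic γ-actin, was at 697, 817 and 842 FPKM in CON and at 1054, 1064 and 1060.2 FPKM in RA. The RA samples lay within 10 FPKM of each other, and all were above CON. Its rise was 1.34-fold, a log2 fold change of 0.42 (SE 0.0766, edgeR adjusted p = 0.0107), and it was lost without RA sample 2 or RA sample 3. Actb (ENSRNOG00000034254), cytoplasmic β-actin and the most abundant member in CON by mean level, was at 1987, 2776 and 2841 FPKM in CON and at 3314, 3366 and 3378 FPKM in RA. The groups did not overlap, yet CON sample 1 lay far below the other CON samples, at 0.708 of their mean. The log2 fold change of Actb was 0.39 with all samples (SE 0.123, edgeR adjusted p = 0.0926) and 0.24 without CON sample 1 (SE 0.0288, edgeR adjusted p = 1.46e-04), so that the smaller value passed the test and the larger did not. Actg2, smooth muscle γ-actin, was at 4.1, 4.36 and 4.26 FPKM in CON and at 4.01, 3.55 and 2.71 FPKM in RA, a log2 fold change of -0.32 with a 95% interval from -0.70 to 0.048 (edgeR adjusted p = 0.27).

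The 4 actins together summed to between 2792 and 3802 FPKM in CON and to between 4430.1 and 4500.04 FPKM in RA. Actb made up between 71.2% and 75% of that sum in CON and between 74.8% and 75.1% in RA. Acta2 made up between 2.8% and 3.7% in CON and between 1.3% and 1.45% in RA. RefSeq names 10 pseudogenes of Actb, 11 of Actg1 and 11 of Cfl1 on GRCr8, and between 1 and 5 each of Cnn3, Tpm1, Tpm2, Tpm3, Myl6, Myl12a and Lims1, none with a row of that name in the tables. How reads shared with such copies were counted is not given in the sources used here, so the levels of these genes are uncertain.

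Cofilin severs and depolymerizes actin filaments and profilin recharges actin monomers, and the genes of both rose. Cfl1 (ENSRNOG00000020660) was at 866, 897 and 908 FPKM in CON and at 1137, 1128 and 1178 FPKM in RA, a 1.28-fold rise (log2 fold change 0.35, SE 0.0505, edgeR adjusted p = 0.00336). Pfn1 (ENSRNOG00000003975) was at 658, 629 and 678 FPKM in CON and at 834, 842 and 861 FPKM in RA, also a 1.28-fold rise (log2 fold change 0.36, SE 0.0557, edgeR adjusted p = 0.00523). For both genes the RA samples were well above every CON sample, and the spread within each group was under 4% of the mean.

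The calponin family binds along actin filaments and steadies them. Of its 6 members, including caldesmon, Tagln2 and Cnn2 rose and the other 4 did not pass the test. Tagln2 (ENSRNOG00000008301), transgelin-2, was at 528, 513 and 514 FPKM in CON and at 639, 650 and 659 FPKM in RA, a log2 fold change of 0.31 (SE 0.0484, edgeR adjusted p = 0.00496). Cnn2 (ENSRNOG00000043044), calponin-2, was at 119, 134 and 137 FPKM in CON and at 182, 185 and 176 FPKM in RA. Its log2 fold change was 0.46 (SE 0.0723, edgeR adjusted p = 0.00519), the highest value among the tested members. Neither gene's groups overlapped.

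Tagln (ENSRNOG00000017628), transgelin or SM22α, was at 368, 380 and 400 FPKM in CON and at 329, 357 and 324 FPKM in RA. Its groups did not overlap either, and its log2 fold change was -0.20 (edgeR adjusted p = 0.107), or -0.23 without CON sample 1, where it passed the test (edgeR adjusted p = 0.0137). Cnn1, smooth muscle calponin, was nearly absent, at 1.98, 1.79 and 1.49 FPKM in CON and 1.01, 1.2 and 1.25 FPKM in RA, a log2 fold change of -0.61 with a 95% interval from -1.06 to -0.16 (edgeR adjusted p = 0.1). Cald1, caldesmon, was at 207, 162 and 140 FPKM in CON and at 149, 133 and 126 FPKM in RA, so the groups overlapped. Its log2 fold change of -0.33 (edgeR adjusted p = 0.164) was -0.17 without CON sample 1 and reached the threshold without CON sample 3, at -0.45 (edgeR adjusted p = 0.0451). Cnn3, calponin-3, was between 195 and 214 FPKM in CON and between 199 and 204 FPKM in RA. Its log2 fold change was -0.022, with a 95% interval from -0.15 to 0.11.

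Ratios of related genes within the same sample do not depend on library size. The ratio of Acta2 to Actb was 0.052, 0.0374 and 0.0405 in CON and 0.0174, 0.0194 and 0.0176 in RA, a 2.37-fold lower ratio in RA. The ratio of Tagln to Tagln2 was 0.697, 0.74 and 0.778 in CON and 0.515, 0.549 and 0.491 in RA, 1.42-fold lower. Cnn1 to Cnn2 went from 0.0136 ± 0.00286 to 0.00639 ± 7.76e-04 (SD, n = 3 each), 2.11-fold lower. In these 3 pairs, each setting a smooth muscle isoform against a broadly expressed relative, every RA sample lay below every CON sample. The first gene of each pair was lower and the second higher in every RA sample than in every CON sample. The separation of these ratios therefore follows from the levels given above.

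The ratio of Actg2 to Acta2, both smooth muscle actins, was 0.0397, 0.0421 and 0.037 in CON and 0.0696, 0.0542 and 0.0455 in RA, so it moved the other way. Actn1 to Actn4 was 0.47 ± 0.00436 in CON and 0.461 ± 0.00773 in RA, and Tpm1 to Tpm4 was 0.309 ± 0.0111 and 0.306 ± 0.0139, both with overlapping groups. The exact two-sided permutation test gave p = 0.1 for each of the 4 ratios whose groups separated, which is the smallest p that 3 samples against 3 allow, and p = 0.15 after adjustment over the 6 ratios tested. It gave p = 0.2 for Actn1 to Actn4 and p = 0.7 for Tpm1 to Tpm4 by the same exact test. With 3 samples against 3, this test cannot bring a ratio past 0.05.

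**Figure D3:**
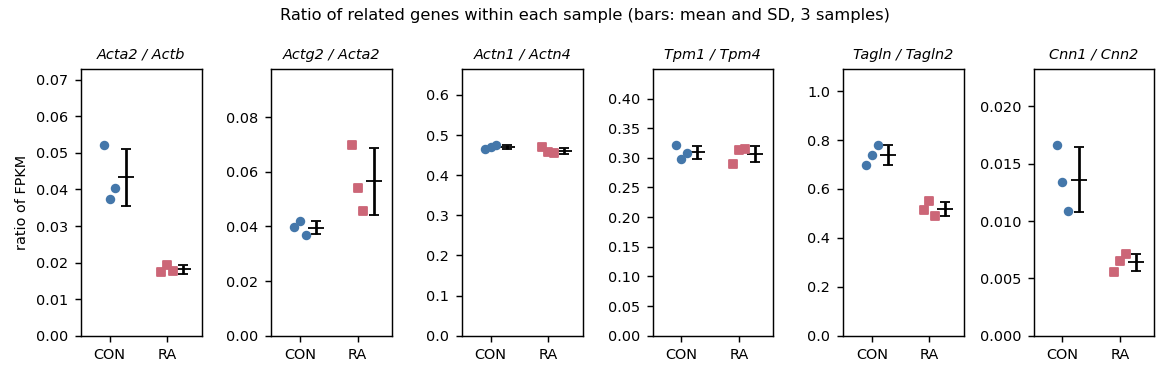
Ratio of the FPKM of 2 related genes within each sample (vertical axes start at 0), with CON as circles, RA as squares and the mean and SD of 3 samples beside them. The RA points lie below all CON points for Acta2 to Actb, Tagln to Tagln2 and Cnn1 to Cnn2, above them for Actg2 to Acta2, and overlap them for Actn1 to Actn4, where 1 of the 3 RA points lies within the CON range, and for Tpm1 to Tpm4.

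Crosslinkers join filaments into bundles and nets, and none of the 3 passed the test with all samples. Flna (ENSRNOG00000054890), filamin A, was at 268, 316 and 336 FPKM in CON and at 356, 371 and 367 FPKM in RA, a log2 fold change of 0.24 (edgeR adjusted p = 0.127), and 0.15 without CON sample 1, where it passed (edgeR adjusted p = 0.0242). The non-muscle α-actinins moved little: the log2 fold change was 0.082 for Actn1, with a 95% interval from -0.062 to 0.23, and 0.11 for Actn4, from -0.017 to 0.24.

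Tropomyosins coat filaments and govern which myosins reach them. All 4 genes had log2 fold changes above 0, between 0.064 and 0.19, and no RA sample of any of them was below a CON sample, but none passed the test with all samples. Tpm4, the most abundant, was at 597, 609 and 576 FPKM in CON and at 727, 657 and 660 FPKM in RA (log2 fold change 0.19, adjusted p = 0.0814, edgeR). Tpm1 had 0.17 (adjusted p = 0.0787) and Tpm3 had 0.15 (adjusted p = 0.136) in the same edgeR test, and Tpm1, Tpm3 and Tpm4 passed it without CON sample 1. Tpm2 was at 230 ± 5.13 FPKM (SD, n = 3) in CON and 243 ± 6.21 FPKM in RA. Its log2 fold change was 0.064, with a 95% interval from -0.063 to 0.19.

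Non-muscle myosin is built from heavy chains, regulatory light chains and essential light chains. Myl12a (ENSRNOG00000015278), a regulatory light chain of non-muscle myosin, was at 503, 548 and 543 FPKM in CON and at 653, 654 and 649 FPKM in RA. The RA samples were nearly equal and all above CON, a log2 fold change of 0.28 (SE 0.0558, edgeR adjusted p = 0.0152), a call kept without CON sample 1 or CON sample 3 and lost without any of the other 4 samples. Its smooth muscle counterpart Myl9 was between 23.2 and 26.5 FPKM in CON and between 23.5 and 27.1 FPKM in RA, a log2 fold change of 0.021 with a 95% interval from -0.18 to 0.22. The heavy chain gene Myh10 was at 68.6 ± 2.24 FPKM in CON and 68.9 ± 0.571 FPKM in RA (SD, n = 3 each), and its 95% interval ran from -0.13 to 0.12. Myl6, the essential light chain, had a log2 fold change of 0.056 (95% interval from -0.082 to 0.19). Mylk, the kinase that activates the light chains of smooth muscle myosin, stayed between 2.63 and 3.17 FPKM in all 6 samples (log2 fold change 0.036, 95% interval from -0.18 to 0.25).

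Myh9, the other main non-muscle heavy chain, could not be measured. The identifier with that name (ENSRNOG00000004860) held 2, 3 and 19 reads in CON and 5, 4 and 8 reads in RA, and was the member that did not pass the filter. A second identifier, Myh9l1 (ENSRNOG00000049236), noticed after the values were seen and listed by RefSeq as a synonym of Myh9, held 3753, 858 and 4405 reads in CON and 879, 1774 and 8876 reads in RA. These counts varied by more than 10-fold across samples with no order by group, and the log2 fold change of Myh9l1 was 0.49 (SE 0.798, edgeR adjusted p = 0.753). A locus listed under separate identifiers can lose reads that match both, so neither row is a level of Myh9, and the planned ratio of Myh9 to Myh10 is not given.

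Of the 11 focal adhesion members, all had log2 fold changes above 0, 4 rose and 7 did not pass the test. The genes that rose encode zyxin, VASP and the PDLIM proteins, which sit on the actin side of the adhesion and along stress fibres. Zyx (ENSRNOG00000017354), the zyxin gene, was at 38.5, 49.7 and 53.1 FPKM in CON and at 62.4, 66.6 and 67.1 FPKM in RA, a log2 fold change of 0.46 (SE 0.116, edgeR adjusted p = 0.0428). Vasp (ENSRNOG00000016367), whose protein promotes filament elongation, was at 36.7, 46.2 and 45.4 FPKM in CON and at 56.8, 56.1 and 59.1 FPKM in RA, with 0.41 (SE 0.0935, edgeR adjusted p = 0.0278). CON sample 1 was the lowest sample for both, and without it their log2 fold changes were 0.33 and 0.31 and still passed.

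Pdlim7 (ENSRNOG00000013653), enigma, was at 39.7, 39.6 and 41 FPKM in CON and at 51.3, 48.8 and 49.1 FPKM in RA, a log2 fold change of 0.30 (SE 0.0586, edgeR adjusted p = 0.0152). Pdlim5 (ENSRNOG00000016419), an α-actinin-binding adaptor, was at 23.6, 22.1 and 24.5 FPKM in CON and at 31.8, 29.2 and 27.9 FPKM in RA, with 0.33 (SE 0.0759, edgeR adjusted p = 0.0302). In both genes every RA sample exceeded every CON sample and CON sample 1 lay near the other CON samples. Zyx, Vasp, Pdlim5 and Pdlim7 each kept the call without CON sample 1 or CON sample 3 and lost it without CON sample 2 or any 1 RA sample. Over those 6 fits their log2 fold changes lay between 0.28 and 0.56.

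The other 7 genes include those of the adhesion's integrin-proximal core. Vcl, vinculin, which reinforces the link under tension, was at 65, 68.2 and 70.2 FPKM in CON and at 70, 70.04 and 70.6 FPKM in RA, a log2 fold change of 0.037 with a 95% interval from -0.092 to 0.17. The 95% interval was from -0.084 to 0.17 for Ilk, from -0.068 to 0.23 for Parva and from -0.21 to 0.32 for Lims1, whose products form the ILK, parvin and PINCH complex behind integrins. For Ptk2, the focal adhesion kinase gene, it was from -0.13 to 0.23. These intervals lie below the log2 value of 0.58 in both directions, so a change of that size in these 5 genes was not seen, while smaller changes within the intervals cannot be told from 0 with all samples. Without CON sample 1 the log2 fold change was 0.14 for Parva (95% interval from 0.040 to 0.24, edgeR adjusted p = 0.0602) and 0.18 for Lims1 (from 0.022 to 0.34, edgeR adjusted p = 0.121), so both intervals lay above 0 and neither gene passed the test.

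The estimates of Tln1 and Pxn also moved with CON sample 1. Tln1, talin-1, which activates integrins, was at 49.2, 66.8 and 73.5 FPKM in CON and at 73.8, 78.3 and 80.3 FPKM in RA. Its log2 fold change was 0.28 (edgeR adjusted p = 0.249) and 0.13 without CON sample 1. Pxn, the scaffold paxillin, was at 21.4, 26.6 and 28.9 FPKM in CON and at 30.1, 29 and 30.4 FPKM in RA, with 0.20 (edgeR adjusted p = 0.297) and 0.085 without that sample.

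Srf and Vim showed the same dependence. Srf was at 10, 13.5 and 14.1 FPKM in CON and at 16.4, 14.9 and 14.8 FPKM in RA, a log2 fold change of 0.28 (edgeR adjusted p = 0.222), or 0.14 without CON sample 1 (edgeR adjusted p = 0.164). Vim, the intermediate filament vimentin, was at 2061, 2614 and 2748 FPKM in CON and at 2698, 2680.1 and 2719 FPKM in RA, so that the RA samples fell between the higher CON samples and close to them. Its log2 fold change was 0.11 with all samples and -0.0071 without CON sample 1.

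**Figure D4:**
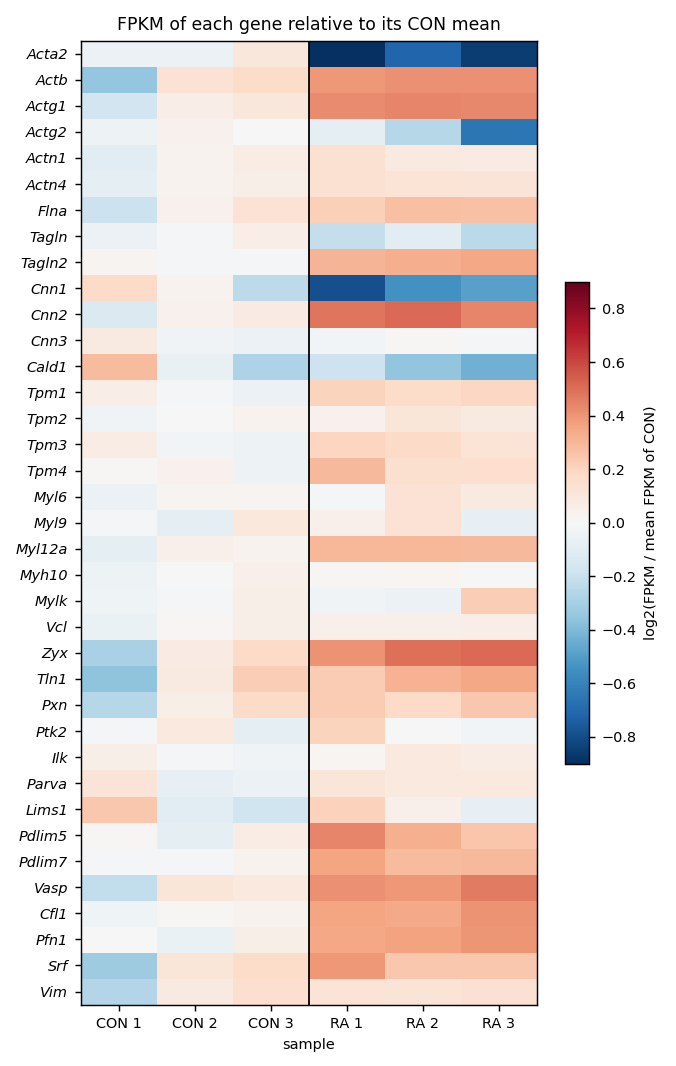
Log2 of the FPKM of each gene in each sample (columns) over the mean of the 3 CON samples, for the 37 tested genes (rows), red above and blue below the CON mean. Within CON, sample 1 is blue for Actb, Zyx, Tln1, Pxn, Srf and Vim and red for Cald1, Lims1 and Cnn1, and Actg2 shows the widest spread among the RA columns.

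CON sample 1 did not deviate in 1 direction only. Relative to the mean of the other CON samples it stood at 0.701 for Tln1, 0.727 for Srf, 0.75 for Zyx, 0.769 for Vim and 0.773 for Pxn, and at 1.37 for Cald1, 1.30 for Lims1 and 1.20 for Cnn1. The median coefficient of variation of the tested members was 5.22% in CON and 2.59% in RA, and 26 of the 37 varied less in RA than in CON. Among all genes with a mean of at least 20 FPKM the medians were 8.09% and 3.47%. What set CON sample 1 apart was not tested.

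Counts of the 38 members together made up 2.06%, 2.34% and 2.40% of the total count in the CON samples and 2.61%, 2.62% and 2.62% in the RA samples. The total count ran from 29370025 to 38007486 reads over the 6 samples. The chondrocyte markers Col2a1, Acan, Sox9 and 7 others were present in every sample, which fits the label, and all 10 were lower in RA, their summed level being 6800 to 8923 FPKM in CON and 4280 to 4618 FPKM in RA. Of 10 smooth muscle and pericyte markers 8 were tested and 0 passed the edgeR test, with 3 (Des, Pdgfrb and Mcam) at an unadjusted p under 0.05, and a summed level of 146 to 182 FPKM in CON and 157 to 163 FPKM in RA. DESeq2 called 2 of the 8, Des and Pdgfrb, both higher in RA. Without CON sample 1, Pdgfrb rose (log2 fold change 0.21, edgeR adjusted p = 0.0338), while Smtn (-0.26, adjusted p = 0.00625) and Mcam (-0.27, adjusted p = 0.0203) fell in the same edgeR fit. Most of that sum was Smtn, and Myh11 and Myocd stayed between 0.993 and 1.28 FPKM. Among 10 fibroblast and perichondrium markers 1 rose (Pdgfra) and 3 fell (Postn, Dcn and Scara5), with sums of 3985 to 5105 FPKM in CON and 4997 to 5236 FPKM in RA. Of the 6 endothelial markers, 5 were matched and summed to at most 0.214 FPKM, with Emcn at 0. Skeletal muscle markers summed to at most 5.63 FPKM, mostly Tnnt3, which fell, while Myod1 rose at under 0.5 FPKM. The 6 macrophage markers, led by Cd14, summed to between 13.2 and 17.4 FPKM and none of the 3 tested passed (1 at an unadjusted p under 0.05). Of the 6 fits that each left out a sample, Dcn was called in 2 and Tnnt3 and Myod1 in 3. The chondrocyte markers Col11a2 and Comp were called in 3 and 5 of them. The other markers called with all samples passed in all 6. The part of these markers' changes in the results on the members was not tested.

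Lists of other genes of the same machinery gave context, and their shares can be read against the 5.31% and 4.5% of all genes that rose and fell. Among 37 tested focal adhesion adaptors outside the members, 7 rose and 4 fell. Without CON sample 1 these counts were 11 and 6, when 8.65% of all genes tested rose and 7.8% fell. The largest rises were those of the LIM proteins Fhl2, from 8.34 ± 1.06 to 15.8 ± 1.14 FPKM (log2 fold change 0.91), and Fhl3 (0.74), and of the parvin Parvb (0.70). The falls included those of Sorbs2 (-0.70), an adaptor that binds vinculin, and Fhl1 (-0.36). All 5 passed the test whichever single sample was left out. Of 17 SRF and MRTF target genes outside the members, 4 rose and 1 fell (6 and 2 without CON sample 1), with Ccn2, a matricellular protein, rising from 694 ± 22.7 to 1021 ± 16.2 FPKM (log2 fold change 0.55) and Egr1, an immediate early factor, by 0.50 on the log2 scale. Fhl2 and Fhl1 stand in both lists.

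Branched nucleation by the Arp2/3 complex had 3 rises among 18 tested genes, Arpc1b (0.41), Nckap1 (0.28) and Cyfip1 (0.22). Turnover and capping had 3 among 21, Coro1c (0.27), Wdr1 (0.25) and Cap1 (0.21), and other crosslinkers had 2 among 15, Lasp1 (0.32) and Dbnl (0.29). Of the SRF cofactors and Hippo effectors, Amotl1 (0.55) rose among 12. With all samples no gene of these 4 lists fell, and without CON sample 1 there were falls of 2 SRF cofactor or Hippo genes and 1 crosslinker. Rises without that sample numbered 6 for Arp2/3, 3 for turnover and capping, 6 for crosslinkers and 1 for SRF cofactors and Hippo effectors. In that fit 8.65% of all genes tested rose and 7.8% fell. Among 10 other actin and myosin genes, Myl12b, the near twin of Myl12a, rose (0.27), and Myh14, another non-muscle heavy chain, and Myo5a, a transport myosin, fell (-0.90 and -0.36), with 3 rises and 3 falls in that list without CON sample 1. Of 10 intermediate filament and lamin genes 2 rose, 1 of them Lmnb1 (0.29) and the other with a mean under 1 FPKM. The values in brackets are log2 fold changes with an adjusted p under 0.05 (edgeR). Many of these calls rested on all samples being present: of the 6 fits that each left out a sample, Nckap1, Cyfip1 and Cap1 were called in 1, and Coro1c, Wdr1, Lasp1, Dbnl, Lmnb1, Myo5a and Egr1 in 2. Arpc1b and Myl12b were called in 3, and Amotl1, Myh14 and Ccn2 in all 6.

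Tubulins, the subunits of microtubules and no part of the actin system, were set beside them. Of 10 tested, 6 rose and 0 fell (7 and 1 without CON sample 1), with a list median log2 fold change of 0.39. Those with the largest rises were Tuba4a (0.56), Tubb6 (0.52), from 170 ± 14.5 to 246 ± 3 FPKM (SD, n = 3 each), and Tubb4b (0.41), the last called in 2 of the 6 fits that left out a sample and the others in all 6. Without CON sample 1, 8.65% of all genes tested rose and 7.8% fell. No test of the difference between the lists was made.

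**Figure D5:**
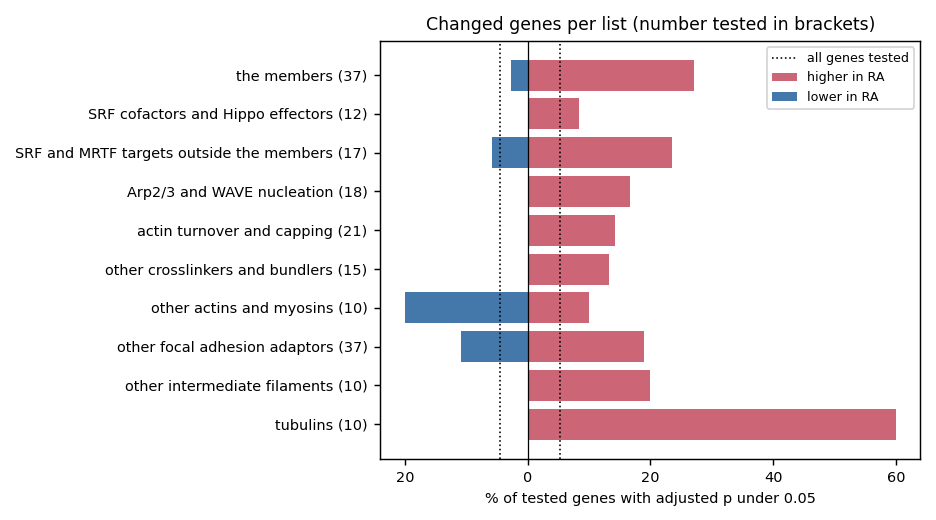
Share (%) of tested genes with an adjusted p under 0.05, higher in RA to the right and lower to the left, for the 38 genes described here ("the members", 37 tested) and 9 lists of related genes, with the number tested in brackets. Dotted lines mark the shares of all genes tested, 5.31% higher and 4.5% lower. Tubulins have the longest bar to the right, and other actins and myosins the longest to the left.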

How the data were processed

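Poly(A) RNA from 3 CON and 3 RA samples was sequenced by the authors. The deposited table of each sample holds the raw count of every gene and beside it the FPKM, which the authors scaled by gene length and by the sample's total. The submitters' processing notes name HISAT2, HTSeq 0.13.5 and the build Rnor_6.0. The annotation and the use of strand are not given in the sources used here. Groups and replicate numbers came from the sample titles.

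Counts were analysed with edgeR 4.0.16 in R 4.3.3 (filterByExpr with a minimum count of 10, TMM normalization, glmQLFit and glmQLFTest, no covariates, all 6 samples), which tested 13438 of 18923 genes. The standard error of a log2 fold change came from the F statistic, and its 95% interval from the same test. FPKM was used for levels, ratios and limma 3.58.1 fits. A count of 3 corresponded to 0.0789 to 0.102 CPM, which covers counting error only. DESeq2 1.42.0, RLE size factors, other filters and pseudocounts, a replicate block and leaving out each sample were the alternatives. The edgeR fit was tested on simulated counts. It called 90 of 99 genes given a log2 fold change of 1 in either direction and 58 of 98 given 0.58, with 7 false calls. Smaller changes were not simulated.

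Every member is named. From each list of related genes, up to 3 rises and 3 falls were named, the largest with an adjusted p under 0.05 and a mean FPKM of at least 1, and some of these results are not reported here. Marker genes and Myh9l1 were named after their values were seen. The members and lists were chosen with earlier results of these data known. Promoter windows were those of RefSeq on GRCr8, with no coordinates of the files' build.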

Additional observations from a re-analysis of the deposited data

How the results depend on the processing

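The 10 rises and the 1 fall among the members were called under each alternative that kept all 6 samples, apart from Zyx in the unfiltered limma fit on log2(FPKM + 0.1). DESeq2 gave 11 rises, adding Actb, when 6.02% of all genes rose. The replicate block, tried because the labels number both groups alike, gave 12 rises and 2 falls, adding Actb, Flna and Cald1, when 6.41% of all genes rose and 5.46% fell. Same-numbered samples did not deviate together (correlations of 0.093, -0.012 and 0.012). With 3 samples per group this does not settle whether they were paired, and the labels do not say. With each sample left out in turn, between 4 and 15 members rose, 1 or 2 fell, and between 657 and 2242 of all genes changed. Signs turned for values near 0 when single samples were left out: log2 values ranged from -0.043 to 0.018 for Cnn3, -0.033 to 0.082 for Myl9, -0.034 to 0.027 for Myh10, -0.058 to 0.083 for Mylk, -0.017 to 0.091 for Ptk2, -0.024 to 0.18 for Lims1, -0.0071 to 0.20 for Vim and -0.039 to 0.024 for the ratio of Tpm1 to Tpm4. Myh10 also turned in limma, to 0.0071 with a pseudocount of 0.1, with or without the filter, and 0.0070 with 1. No other member changed sign. The members' median log2 fold change lay between 0.11 and 0.15 throughout. Fits on 5 samples have fewer degrees of freedom, and the cause of the lost calls was not tested. Too few reads carried the Myh9 identifier for a test.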
